A study of Mus musculus with 12 samples.

Results

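The difference between heterozygous and wild-type cultures was measured in the soma fraction of cultured dorsal root ganglion (DRG) neurons. DRG neurons are the sensory neurons whose cell bodies sit beside the spinal cord. Every soma library of the series was taken, 6 of its 12 libraries, with all 35313 transcripts of the soma count table, 3447 of which stand in that table and not in the neurite table. The 3 WT libraries carry the genotype GAR+/+ and the 3 het libraries GAR+/-, on the C57B6 background strain. Each culture came from the ganglia of 1 adult mouse and received no drug. The dissociated cells were grown for 3 days on laminin-coated inserts with 1 µm pores, which let neurites pass and hold cell bodies back, and the soma and neurite sides were sequenced separately. The labels give no sex and do not describe the allele beyond its genotype.

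Nucleolin is an abundant RNA-binding protein of the nucleolus, the place where ribosomes are assembled, and it also shuttles to the cytoplasm. Its glycine- and arginine-rich (GAR) stretch binds RNA and other proteins. In sensory axons nucleolin is known as a carrier of mRNAs such as those for importin beta1 and mTOR, bound to kinesin motors, and it has been linked to how a neuron senses its own size. A DRG culture is never neurons alone. Satellite glia wrap the cell bodies, Schwann cells wrap the axons, and fibroblasts, vessel cells and macrophages come along from the ganglion, and of these the glia and fibroblasts can divide in the dish whereas neurons cannot.

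Genes of dividing cells were among those that fell in het soma, and the promoters of 4 of them are shown here to let their shared letters be seen. Top2a and Kif11 act in mitosis, Ccnb2 drives entry into it, and Mcm5 belongs to the helicase that opens DNA for replication. Each sequence runs 5′ to 3′ on the gene's strand from 250 bases before to 50 bases after the RefSeq start (GRCm38.p6). Capitals mark 3 motifs searched on both strands, the CHR element TTTGAA (reverse TTCAAA), the CCAAT box (reverse ATTGG) and the E2F site TTTGGCGC or TTTCGCGC, all known from promoters of cell-cycle genes. In Mcm5 the E2F letters of the 2 strands overlap in 1 run. The regions are chr11:99024140-99024439 on the minus strand for Top2a, chr9:70421505-70421804 on the minus strand for Ccnb2, chr19:37376132-37376431 on the plus strand for Kif11 and chr8:75109259-75109558 on the plus strand for Mcm5.
Top2a: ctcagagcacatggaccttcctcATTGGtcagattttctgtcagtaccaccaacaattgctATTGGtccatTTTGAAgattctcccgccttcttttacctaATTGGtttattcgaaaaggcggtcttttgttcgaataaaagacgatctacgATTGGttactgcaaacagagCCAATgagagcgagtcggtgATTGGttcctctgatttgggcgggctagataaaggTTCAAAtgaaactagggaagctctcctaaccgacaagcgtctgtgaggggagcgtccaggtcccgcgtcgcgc
Ccnb2: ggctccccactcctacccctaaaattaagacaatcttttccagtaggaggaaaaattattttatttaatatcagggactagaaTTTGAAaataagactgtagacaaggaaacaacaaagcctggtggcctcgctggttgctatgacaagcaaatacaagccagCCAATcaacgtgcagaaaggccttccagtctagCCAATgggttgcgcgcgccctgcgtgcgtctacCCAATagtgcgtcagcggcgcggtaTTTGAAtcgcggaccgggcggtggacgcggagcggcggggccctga
Kif11: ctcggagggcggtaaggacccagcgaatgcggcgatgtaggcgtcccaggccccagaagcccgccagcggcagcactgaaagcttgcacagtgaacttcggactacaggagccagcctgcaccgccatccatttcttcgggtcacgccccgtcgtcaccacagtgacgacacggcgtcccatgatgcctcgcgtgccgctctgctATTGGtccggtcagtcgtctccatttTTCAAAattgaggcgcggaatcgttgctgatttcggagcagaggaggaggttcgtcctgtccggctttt
Mcm5: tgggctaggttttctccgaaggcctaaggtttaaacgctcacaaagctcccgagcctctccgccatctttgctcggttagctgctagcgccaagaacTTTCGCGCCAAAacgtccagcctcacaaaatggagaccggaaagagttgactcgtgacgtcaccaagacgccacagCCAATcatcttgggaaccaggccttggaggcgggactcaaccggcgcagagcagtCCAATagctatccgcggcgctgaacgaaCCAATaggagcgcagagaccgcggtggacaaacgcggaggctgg

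Promoters in the RefSeq table were matched to 8187 of the tested genes. CHR letters lay in 11.3% of those promoters, in 49 of the 223 matched promoters of genes that fell in het soma, and in 15 of 25 (60.0%) matched promoters of the proliferation genes described further on. The CCAAT box lay in 38.5%, 47.5% and 80.0% of the same sets, and the E2F letters in 1.5%, 3.6% and 16.0%. Both CHR and CCAAT letters were found in 4.5% of all matched promoters and in 56.0% of those of the proliferation list. A match of letters is a description of the sequence and not a measured site of binding.

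The 6 libraries held between 22163752 and 32434916 counts, so that 3 counts correspond to 0.0925 to 0.135 CPM, the unit of all levels given here. CPM is the count of a gene scaled to a common library size, with edgeR's library factors, and is not divided by gene length. The marker sets fixed for neurons (8 of 8 genes), nociceptors (6 of 6), satellite glia (4 of 4), Schwann cells (4 of 4), fibroblasts (4 of 4) and endothelium (3 of 3) were all in the table. Of the macrophage markers 2 of 4 were in it, with Cd68 at 4.73 to 9.53 CPM, and none of the 3 blood markers was. Neuronal Tubb3 lay between 3843 and 5209 CPM, and the Y-linked gene Ddx3y between 193 and 220 CPM in every library. Neuronal markers were thus present, as the label says, together with those of glia and connective tissue. The labels do not say whether the 3 libraries of a genotype were prepared at separate times, so p-values measure the spread between these 6 cultures.

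Nucleolin mRNA itself was not lower in het soma. Ncl (ENSMUSG00000026234.12, chromosome 1, 86344719 to 86359400, GRCm38) was at 218, 238 and 240 CPM in the WT libraries 1, 2 and 3 and at 252, 259 and 292 CPM in the het libraries. The lowest het library lay above the highest WT library. The log2 fold change of het over WT was 0.20 ± 0.08 (SE, n = 3 against 3) and did not pass the test (edgeR adjusted p = 0.269, and 0.108 with the libraries paired). The count is over all reads of the gene and does not tell apart reads from an intact and a changed allele. Kpnb1, which encodes importin beta1, was at 982, 954 and 990 CPM in WT and 891, 833 and 893 CPM in het soma. Its libraries did not overlap either, with a log2 difference of -0.16 ± 0.07 that did not pass (edgeR adjusted p = 0.342). Mtor, the kinase of the growth-signalling complexes, overlapped between the groups at 277, 317 and 278 CPM in WT and 281, 307 and 312 CPM in het (0.04 ± 0.08, edgeR adjusted p = 0.849).

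Across the transcriptome the differences that passed ran almost all in 1 direction. Of 16101 genes tested, 371 (2.3%) fell and 12 (0.0745%) rose in het soma at an adjusted p under 0.05, 383 (2.38%) in all, whereas the median log2 fold change over all tested genes was 0.01. The 371 lower genes differed by a median of 0.72 on the log2 scale, from 0.32 to 2.20, and 77 of them by at least 2-fold. None of the 12 higher genes reached 2-fold, and their median was 0.54. In all 371 and all 12 the 3 het libraries lay on 1 side of the 3 WT libraries, against 11.9% and 8.81% of all tested genes that lay apart in those directions. The test on these same libraries favours genes so separated, so this adds no support to the calls. An unadjusted p under 0.05 was reached by 2408 genes. Of the 371 lower genes, 364 were protein-coding and 44 belonged to a gene list described here.

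Libraries with the same replicate number moved together, with correlations of 0.23, 0.28 and 0.16 between same-numbered WT and het libraries in their deviations from the group means over all tested genes. Treating the numbers as pairs brought the calls to 1302 (8.09%), 1054 lower (6.55%) and 248 higher (1.54%), and all 383 genes were among them. The share of calls that were higher went from 3.1% to 19.0%. In a fit of soma and neurite libraries together, 12 in all, no gene passed in soma without the pairing (0 of 16394, with 1482 at an unadjusted p under 0.05) and 521 passed with it. Without WT library 3 the count was 94, without het library 1, 2 or 3 it was 193, 79 and 170, and without WT library 2 it was 564. Of the 383 genes, 64 passed in all 6 fits that left out a library. None changed sign, but their groups did not overlap, so leaving out 1 library could not be expected to reverse a sign.

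**Figure D1:**
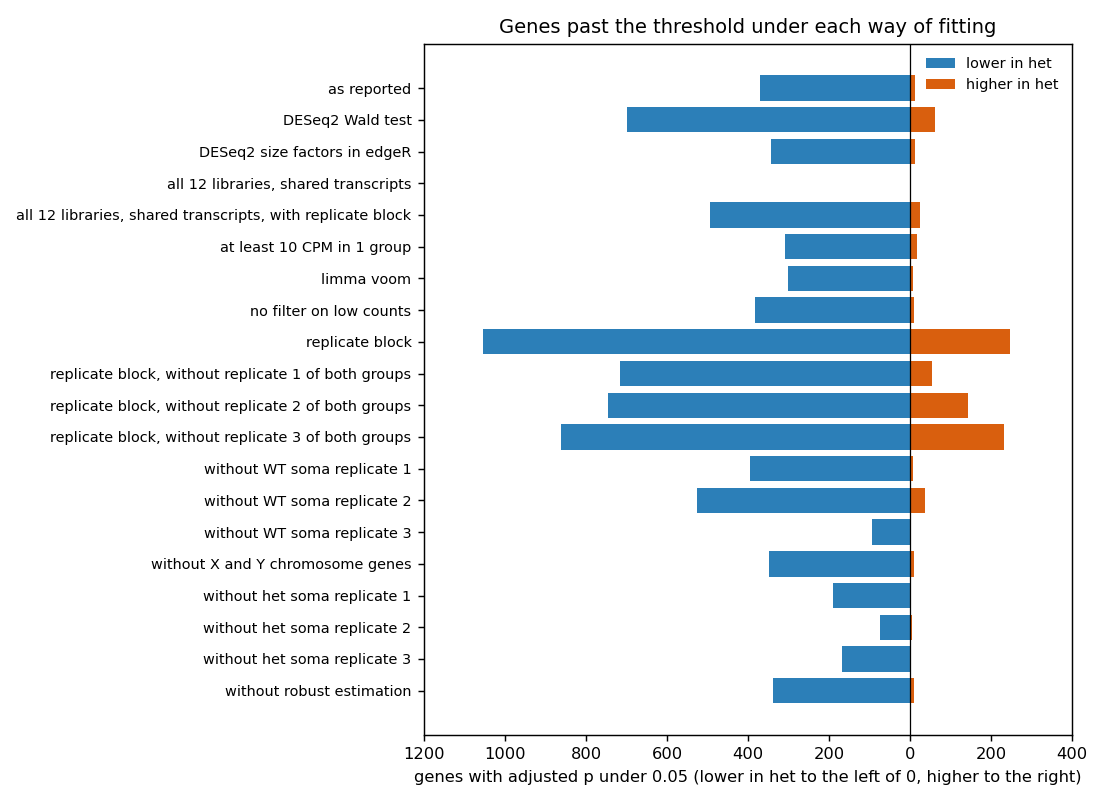
Number of genes past an adjusted p of 0.05 (x axis, lower in het to the left of 0 and higher to the right) under each way of fitting the soma libraries (rows). The bars to the left are longer in every row that has any call, with 371 lower and 12 higher genes as reported, 1054 and 248 with replicate numbers as a block, and 0 of either in the unpaired fit of 12 libraries.

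Of the 27 gene lists with at least 5 tested members, that of cell division had the lowest median and the most calls. The lists were chosen with earlier results of these data known, so their order and counts are descriptions only. Of 36 genes listed for DNA replication and mitosis, 34 passed the filter on low counts; 17 of these fell and none rose in het soma, against 2.3% lower among all genes. Their median log2 fold change was -0.98, with all 34 values below 0, from -1.43 to -0.27, and 31 had libraries that did not overlap. The summed level of the list was 1974, 1667 and 2273 CPM in the WT libraries and 1135, 843 and 1128 CPM in the het libraries. Each het library held less than any WT library, and the het-to-WT ratio was 0.57, 0.51 and 0.50 in pairs 1, 2 and 3. With the pairing, 30 of the 34 passed. Such a difference in a bulk sample cannot tell fewer dividing cells from less of these RNAs per cell.

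Top2a (ENSMUSG00000020914.17, chromosome 11, 98992943 to 99024189), the topoisomerase that untangles replicated chromosomes, was at 231, 188 and 266 CPM in WT and at 102, 66.0 and 99.7 CPM in het soma. Every het library lay below every WT library, and the gene fell by 1.35 ± 0.20 on the log2 scale (SE, n = 3 against 3, edgeR adjusted p = 0.0235). Mki67, whose protein Ki-67 coats mitotic chromosomes, was at 248, 244 and 361 CPM in WT and 132, 104 and 153 CPM in het. WT library 3 stood highest and the groups did not overlap, with a log2 change of -1.13 ± 0.20 (edgeR adjusted p = 0.0404). Iqgap3, a scaffold protein made in dividing cells (ENSMUSG00000028068.14, chromosome 3, 88081971 to 88121048), was at 69.7, 59.7 and 89.5 CPM in WT against 28.5, 25.1 and 28.2 CPM in het. The 3 het libraries were nearly equal, and the change of -1.42 ± 0.14 (edgeR adjusted p = 0.00467) passed in each of the 6 fits without a library. Ccnb2, cyclin B2, was the gene with the lowest log2 fold change among those at 10 CPM or more, with 15.4, 13.0 and 21.2 CPM in WT and 7.24, 4.91 and 6.22 CPM in het (-1.43 ± 0.20, edgeR adjusted p = 0.00874).

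Replication genes fell along with mitotic ones. Of the helicase that opens DNA before it is copied, 5 of the 6 listed subunits of the MCM helicase passed. Mcm3 was at 117, 102 and 126 CPM in WT and at 66.3, 52.7 and 69.4 CPM in het, with no overlap (-0.87 ± 0.11, edgeR adjusted p = 0.00806), and Mcm5 had a log2 change of -0.81 ± 0.13. Mcm2, Mcm4 and Mcm7 were at -0.66, -0.68 and -0.57, and Mcm6 at -0.75 passed with the pairing (adjusted p = 1.14e-05) but not without it (0.0895). Pcna, the clamp that holds DNA polymerase on its template, fell from 90.8 ± 3.7 to 60.2 ± 5.5 CPM (SD, n = 3 each), a log2 change of -0.59. Of the mitotic genes Kif11 (-1.12), Cenpf (-1.03), Anln (-1.20), Nusap1 (-1.29), Prc1 (-1.11), Cdc20 (-0.97) and Ube2c (-1.21) fell. Rrm2, the ribonucleotide reductase subunit that supplies DNA precursors, passed with the pairing alone, at ratios of 0.45, 0.41 and 0.40 in the 3 pairs (adjusted p = 1.59e-07 against 0.0732 unpaired).

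The 12 genes with the lowest log2 fold changes among those at 10 CPM or more were, besides Ccnb2, Iqgap3 and Top2a, largely other genes of dividing cells. Pbk, a mitotic kinase, was at 40.9, 33.3 and 53.5 CPM in WT against 20.1, 11.4 and 16.0 CPM in het (-1.42 ± 0.24, edgeR adjusted p = 0.0342). Esco2, which acetylates the cohesin ring that holds sister chromatids, was at -1.40, the kinetochore gene Spc24 at -1.27 and the mitotic kinesin Kif18b at -1.24. Fam64a (-1.38), the linker histone gene Hist1h1b (-1.34) and Ccna2 (cyclin A2, -1.28) also passed. Wnt6, a secreted signalling protein, was at 11.4, 14.5 and 18.2 CPM in WT and 6.85, 5.96 and 6.08 CPM in het. All Wnt6 het libraries lay below all WT libraries (-1.22 ± 0.17, edgeR adjusted p = 0.00843).

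Counts over this list moved with single libraries. Of the 34 proliferation genes 8 fell when WT library 3 was left out, 6 without het library 2, 7 without het library 3 and 26 without WT library 2, with 0 rising in each case. In the unpaired 12-library fit none passed, and 29 did when it was paired.

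**Figure D2:**
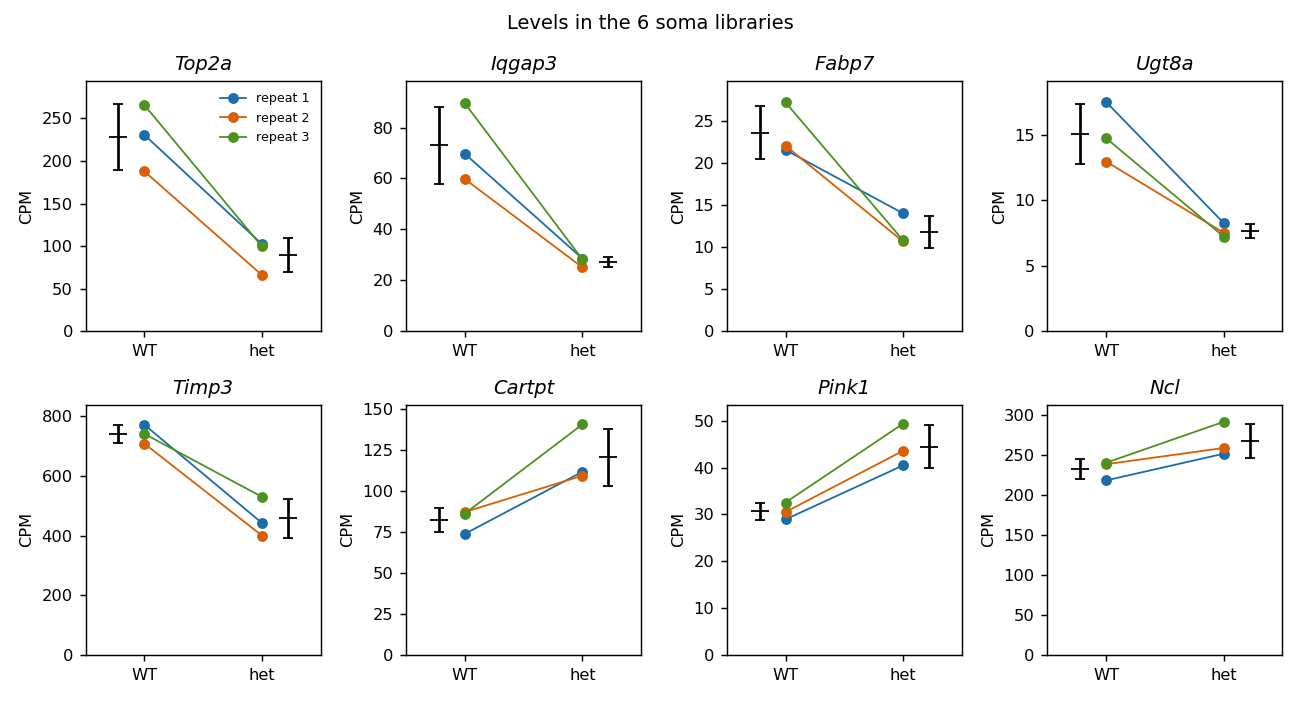
Level in CPM (y axes, from 0) of 8 genes in the 3 WT and 3 het soma libraries; lines join libraries of the same replicate number and black marks give the group mean with its SD. Top2a, Iqgap3, Fabp7, Ugt8a and Timp3 drop along every line, Cartpt and Pink1 climb along every line, and Ncl is 218 to 240 CPM in WT and 252 to 292 CPM in het libraries.

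Genes of satellite glia, the cells that enclose each sensory cell body, were also lower in het soma. Of 25 listed, 7 fell and none rose, against 2.3% lower among all genes, and the median log2 fold change was -0.59 with 22 values below 0. Fabp7, a fatty-acid-binding protein used as a satellite glia marker, was at 21.6, 22.1 and 27.2 CPM in WT and 14.0, 10.7 and 10.8 CPM in het soma. The groups did not overlap and the log2 change was -0.99 ± 0.14 (edgeR adjusted p = 0.00845). Ptprz1, a receptor phosphatase, was at 87.8, 77.9 and 72.4 CPM in WT and 39.8, 36.9 and 51.3 CPM in het, again with no overlap (-0.90 ± 0.13, edgeR adjusted p = 0.00845). Among the other members that fell, the Notch target Hey2 had a log2 change of -0.78 and Gja1, which encodes the gap-junction protein connexin 43, of -0.67.

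The transcription factor Sox10, needed in all peripheral glia, was at 238, 270 and 282 CPM in WT and 176, 185 and 200 CPM in het soma. Sox10 het libraries all lay below the WT libraries, by 0.49 ± 0.09 on the log2 scale (edgeR adjusted p = 0.0162). Sox2, a factor of immature glia, fell from 135 ± 8.9 to 98.1 ± 3.8 CPM (SD, n = 3 each). The glial cadherin Cdh19 passed with the pairing (adjusted p = 0.000659) and not without it (0.128), with WT library 2 at 315 CPM far above the other libraries at 143 to 234 CPM. The satellite glia marker Kcnj10 was at -0.69 and passed in neither fit (edgeR adjusted p = 0.0973 paired and 0.297 unpaired). Glul, the glutamine synthetase gene used as another marker of these cells and named here after its value was seen, was at a log2 value of 0.12 and did not pass. With the pairing 14 of the 25 fell, against 6.55% of all genes. Without WT library 3 or without het library 2 the unpaired count was 2.

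Schwann cell genes showed the same direction in part. Of 26 tested members 7 fell and none rose, against 2.3% lower among all genes, with a median of -0.37, and 20 values were below 0. Sox10 is on both glial lists. Ugt8a, which makes the myelin lipid galactosylceramide, was at 17.5, 13.0 and 14.8 CPM in WT against 8.27, 7.52 and 7.23 CPM in het, with no overlap (-0.97 ± 0.14, edgeR adjusted p = 0.00845). Gldn, which encodes gliomedin, a protein of Schwann cell processes at the node of Ranvier, was the more abundant at 449, 490 and 499 CPM against 273, 279 and 356 CPM (-0.66). The adhesion gene Cadm4 (-0.64), the Schwann cell ligand Dhh (-0.71) and the myelin transcription factor Egr2 (-0.80) also fell.

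Several Schwann cell and myelin genes did not pass. Mbp, the myelin basic protein gene, was at 30.1, 29.2 and 31.4 CPM in WT and at 36.0, 36.4 and 31.4 CPM in het soma, a log2 value of 0.20 that did not pass (edgeR adjusted p = 0.352). Pmp22 stood at -0.11, S100b at 0.04 and Ngfr at 0.11, 3 markers picked after their values were seen, none past the test. Gfap, the filament gene of non-myelinating glia, was scarce at 0.540, 1.13 and 1.25 CPM in WT and 0.121, 0.390 and 0.0921 CPM in het, with het libraries 1 and 3 near the level of 3 counts. It passed the filter on low counts only through its WT libraries, so no fold change is given for it. With the pairing 11 of the 26 genes were called lower, Gfap among them, against 6.55% of all genes. Without WT library 3 or het library 2 the unpaired count was 2, and the list median ranged from -0.24 without WT library 3 to -0.56 without WT library 1.

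**Figure D3:**
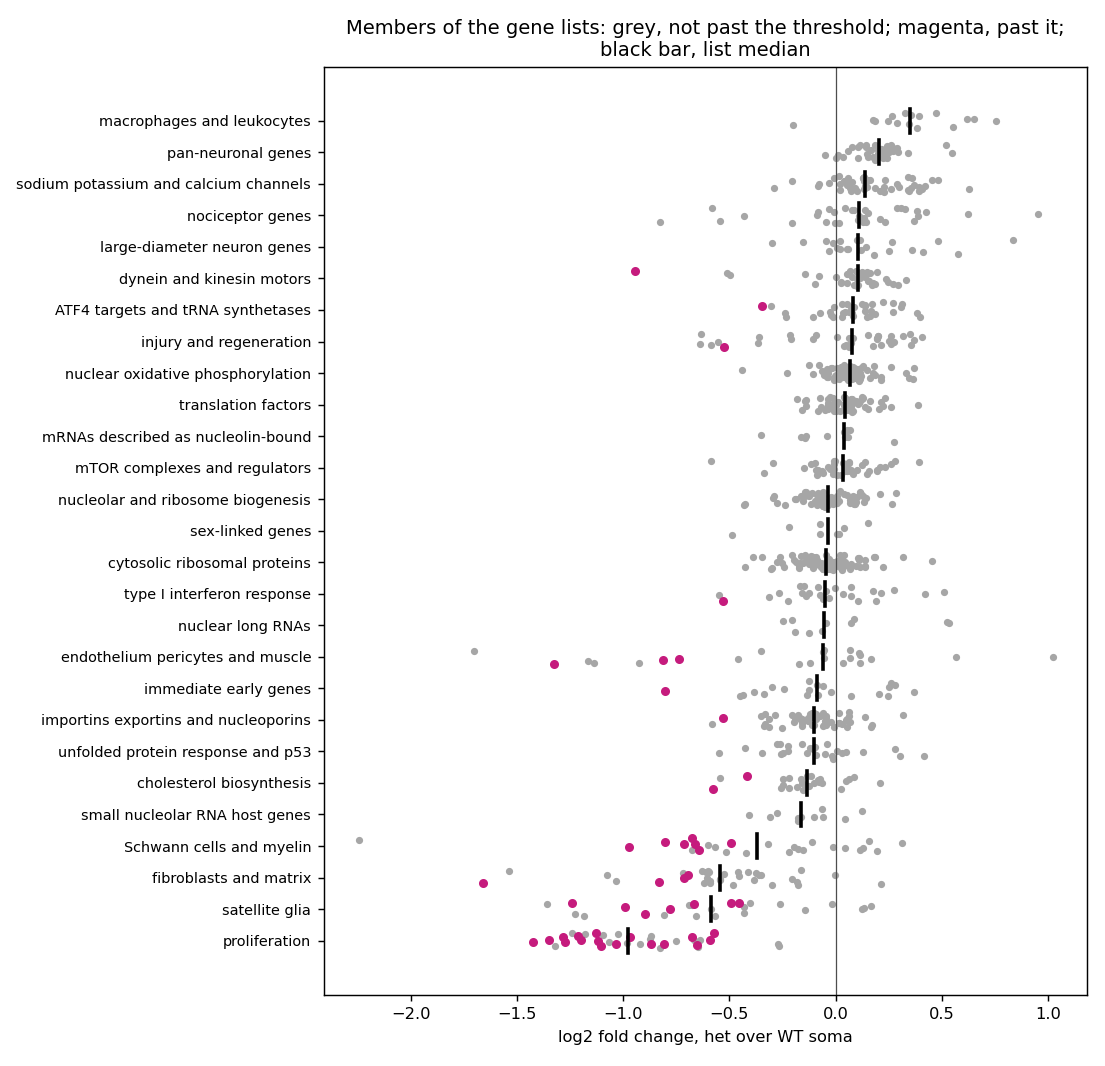
Log2 fold change of het over WT soma (x axis) for each tested member of 27 gene lists (rows, ordered by the list median, black bar); magenta members passed the test and grey ones did not. Every magenta member lies left of 0, with 17 in the proliferation row, 7 each in the satellite glia and Schwann cell rows and none in the pan-neuronal, nociceptor, large-diameter neuron and channel rows.

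Genes of fibroblasts and extracellular matrix had a low median. Of 35 tested members 4 were called lower and none higher, against 2.3% lower among all genes, and 34 values were below 0 at a median of -0.54. Timp3, an inhibitor of matrix-cutting proteases, was at 771, 708 and 741 CPM in WT and 442, 400 and 530 CPM in het soma. Timp3 libraries did not overlap, and the change of -0.69 ± 0.10 (edgeR adjusted p = 0.00874) passed in each of the 6 fits without a library. The matrix genes Fbln2 (-0.72) and Postn (-0.83) also fell. The scarce Fbln1 was the remaining call, at 1.54, 1.05 and 0.939 CPM in WT and 0.454, 0.273 and 0.368 CPM in het, and it passed the filter on low counts only through its WT libraries.

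The matrix libraries spread widely within the WT group. The summed level of the list was 9207, 4587 and 6314 CPM in WT and 4048, 2812 and 5029 CPM in het soma, so the groups overlapped, with ratios of 0.44, 0.61 and 0.80 in the 3 pairs. Col1a2, a chain of type I collagen, showed the same order at 1330, 645 and 803 CPM against 484, 336 and 499 CPM. Its change of -1.07 passed with the pairing (adjusted p = 0.00394) and not without it (0.214). Fbln5, an elastic-fibre protein, was at 202, 91.6 and 128 CPM in WT against 60.4, 33.7 and 51.1 CPM in het. Its adjusted p was 9.67e-08 with the pairing, shared with Top2a as the smallest of that fit, and 0.164 without it. Lum, Timp1, Sparc and Bgn also passed in the paired fit alone, where 13 of the 35 were called lower against 6.55% of all genes. Of the 4 fixed fibroblast markers only Lum passed in either fit. Col1a1 was at -0.48 (edgeR adjusted p = 0.0533 paired and 0.636 unpaired) and Dcn at -0.16 (0.468 and 0.661). Pdgfra was scarce, at means of 0.622 CPM in WT and 0.362 CPM in het soma, and passed in neither fit. Only 1 of the 35 fell without WT library 1, WT library 3, het library 1 or het library 2.

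Vessel-wall and muscle genes were split. Of 23 tested, 3 fell and none rose, against 2.3% lower among all genes, at a median of -0.06 that went from -0.25 without WT library 2 to 0.16 without WT library 3. Des, the filament gene desmin, was at 2.74, 2.49 and 2.37 CPM in WT and 1.15, 1.05 and 0.783 CPM in het (-1.33 ± 0.23, edgeR adjusted p = 0.0162). The pericyte receptor gene Notch3 (-0.74) and the proteoglycan gene Cspg4, also called NG2 (-0.81), were the other 2. The smooth muscle actin gene Acta2 was at 153, 53.3 and 117 CPM in WT and 58.1, 24.9 and 61.0 CPM in het, values that overlap across cultures but fell in each pair to 0.38, 0.47 and 0.52 (adjusted p = 2.17e-06 paired, 0.443 unpaired). The endothelial markers did not pass, with Kdr at a log2 value of 0.17, Cdh5 at 0.07 and Pecam1 at -0.06. Without WT library 3 or het library 2 none of the 23 passed. None of the 16 macrophage and leukocyte genes passed in the unpaired fit, and Mrc1, the mannose receptor gene, rose in the paired fit (0.65, adjusted p = 0.00138). Their median of 0.35 was 0.00 without het library 3 and 0.17 without WT library 1. Their summed level was 177, 274 and 272 CPM in WT and 225, 233 and 463 CPM in het soma, with het library 3 the highest.

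**Figure D4:**
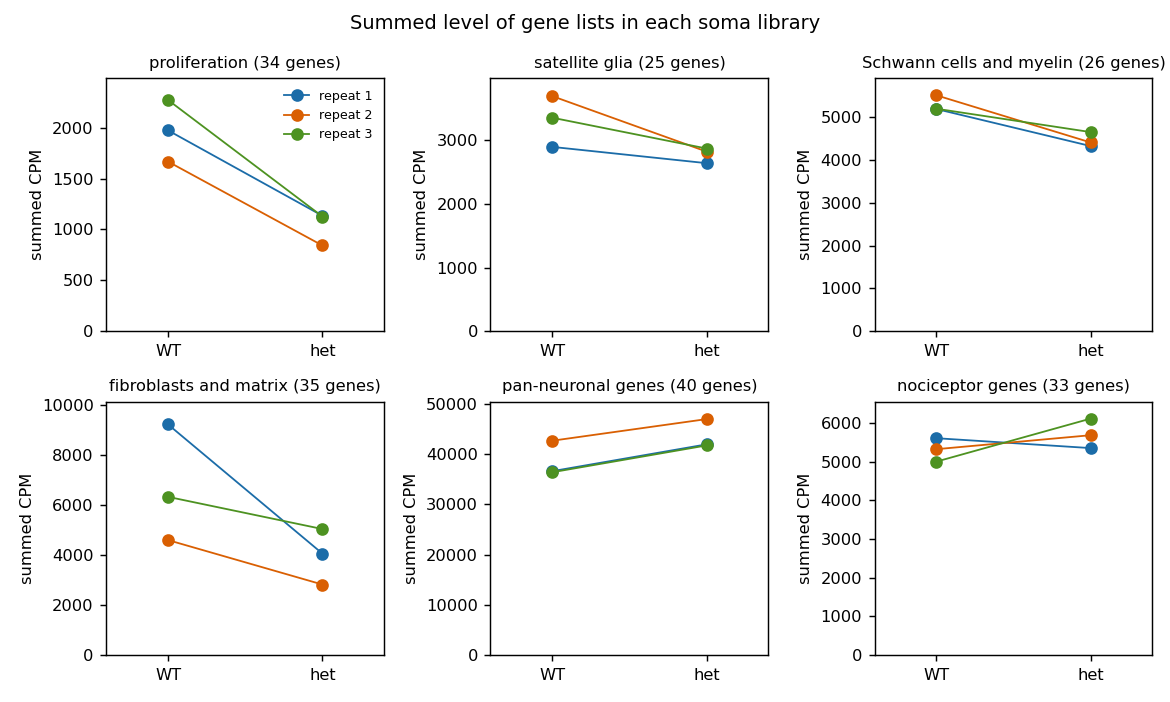
Summed CPM (y axes, from 0) of 6 gene lists in each soma library; lines join libraries of the same replicate number. The proliferation, satellite glia, Schwann cell and matrix sums drop in all 3 pairs, the pan-neuronal sum climbs in all 3 (ratios 1.15, 1.10 and 1.15), and the nociceptor sum drops in pair 1 and climbs in pairs 2 and 3.

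Genes that all sensory neurons share had log2 values slightly above 0, and none of them passed in the unpaired fit. Of 40 pan-neuronal genes 39 had a log2 fold change above 0, at a median of 0.20 beside 0.01 for all genes. Their summed level was 36621, 42692 and 36408 CPM in WT and 41968, 47004 and 41754 CPM in het soma, so that the groups overlapped while each het library exceeded its pair. With the pairing 8 of the 40 rose, against 1.54% of all genes. That count was 0 without replicate 1 of both groups, 2 without replicate 2, 9 without replicate 3 and 0 in the paired fit of 12 libraries. The 8 included the synaptic genes Syn2 and Vamp2, the vesicle protein gene Nsg2, the RNA-binding protein gene Celf4, and Stmn3, Uchl1 and Rtn1. Vamp2, which encodes synaptobrevin 2, was at 112, 143 and 137 CPM in WT and 149, 173 and 176 CPM in het, above every WT library in each case (0.34 ± 0.10, adjusted p = 0.00436 paired and 0.132 unpaired). Syn2, which encodes the vesicle protein synapsin 2, was at 180, 189 and 179 CPM against 227, 233 and 212 CPM (0.29 ± 0.07, adjusted p = 0.0137 paired and 0.0607 unpaired). CPM is a share of each library, so a lower share of glial and dividing-cell RNA and a higher share of neuronal RNA cannot be told apart from changes within neurons, and the amount of RNA per culture was not analysed here.

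Genes of neuron subtypes gave no call in the unpaired fit. Of 33 nociceptor genes none passed unpaired and 6 rose with the pairing, against 1.54% of all genes, at a median of 0.11. The paired count was 1, 2 and 2 without replicate 1, 2 or 3 of both groups and 0 in the paired fit of 12 libraries, and the paired median was 0.02 without replicate 3. Gfra3, the receptor for artemin, was at 215, 286 and 285 CPM in WT and 299, 346 and 386 CPM in het (0.39 ± 0.13, adjusted p = 0.00253 paired and 0.178 unpaired). The heat receptor gene Trpv1 (0.37), the substance P precursor gene Tac1 (0.38) and Fxyd2 (0.31) were among the other 5, with P2rx3 (0.29) and Il31ra (0.33). None of 22 genes of large-diameter neurons passed in either fit, at a median of 0.11. Of 50 sodium, potassium and calcium channel genes 4 rose with the pairing alone and 0 in the paired fit of 12 libraries, namely Kcnk3 (0.42), Kcna4 (0.36), Cacna1e (0.45) and Cacnb1 (0.34), at a list median of 0.14.

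The 12 genes that rose without the pairing were all protein-coding, and none was a member of any list. Cartpt, which encodes the neuropeptide CART, was at 73.8, 87.1 and 86.2 CPM in WT and 112, 109 and 141 CPM in het soma. The lowest het library was well above the highest WT library, at a log2 change of 0.55 ± 0.11 (edgeR adjusted p = 0.0277). Pink1, the mitochondrial kinase that marks damaged mitochondria, was at 28.9, 30.5 and 32.5 CPM against 40.5, 43.6 and 49.4 CPM (0.54 ± 0.10, edgeR adjusted p = 0.0196). Cabp1, a neuronal calcium-binding protein, was at 43.4, 38.9 and 37.4 CPM against 56.3, 56.8 and 54.4 CPM (0.48 ± 0.09, edgeR adjusted p = 0.0167). In both genes the groups did not overlap. Colec10, a collectin, had the highest log2 change of those at 10 CPM or more (0.65), followed by the orphan receptor gene Gpr26 (0.60), the synaptotagmin-family gene Syt16 (0.60), the zinc-finger factor gene Insm1 (0.57), Efcab1 (0.52), Tub (0.47) and Hsbp1l1 (0.40). Of these, Pink1 passed in 3 of the 6 fits without a library, Cabp1, Colec10 and Gpr26 in 2, and Cartpt, Insm1 and Syt16 in 1. Gpx3, a glutathione peroxidase gene (0.71, adjusted p = 0.00102), rose with the pairing and did not pass without it (0.0663).

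The nucleolar and translation machinery that nucleolin is known to serve gave no call in the unpaired fit. None of 64 nucleolar and ribosome-biogenesis genes passed in either fit, and their median was -0.03. Their summed level was 3777, 3588 and 3589 CPM in WT and 3592, 3613 and 3649 CPM in het. None of 82 cytosolic ribosomal protein genes passed unpaired (median -0.04), and 3 fell with the pairing, against 6.55% of all genes. These were Rplp0, at 350, 262 and 318 CPM in WT and 243, 258 and 211 CPM in het (-0.39, adjusted p = 0.0429), Rpl30 (-0.43) and Rpl39 (-0.24). None of 59 translation factor genes passed in either fit (median 0.05), nor did any of 11 host genes of small nucleolar RNAs (-0.16). Of 74 nuclear genes of oxidative phosphorylation none passed in either fit (0.07). Many ribosomal protein genes have near-identical pseudogenes, so their counts depend on how reads with several matches were assigned, which is not given in the sources used here.

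Few transport and growth-signalling genes were called. Of 54 importins, exportins and nucleoporins 1 fell, against 2.3% of all genes. It was Nup160 of the nuclear pore's outer ring, from 53.9, 52.8 and 62.6 CPM to 38.9, 35.2 and 43.2 CPM with no overlap (-0.53 ± 0.10, edgeR adjusted p = 0.024). The pore genes Nup205, Nup155 and Nup188 fell with the pairing alone, 4 of 54 in all against 6.55%. The list median was -0.10, and 18 of the 54 genes had het libraries that all lay below the WT libraries, against 11.9% of all genes. Of 41 dynein and kinesin genes Nde1, a dynein regulator also needed in mitosis, fell from 4.97 to 2.58 CPM (-0.95). With the pairing 2 of the 41 fell, Nde1 and the kinesin gene Kif1c (-0.50, adjusted p = 0.028). In the same fit 2 motor-linked genes rose, Klc1 (0.33) and Mapk8ip1 (0.29), against 1.54% of all genes. None of 45 mTOR genes passed unpaired (median 0.03), with Pik3r1 (-0.29) and Ddit4l (-0.59) lower in the paired fit. None of 11 mRNAs described as bound by nucleolin, importin beta1 and mTOR among them, passed in either fit (median 0.04).

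Stress and injury genes moved in both directions. Among all genes tested 2.3% fell and 0.0745% rose unpaired, and 6.55% fell and 1.54% rose with the pairing. Of 34 genes of nerve injury and regeneration 1 fell, Fst, which encodes the activin inhibitor follistatin, from 51.9, 56.0 and 53.7 CPM to 36.7, 36.5 and 39.0 CPM (-0.53 ± 0.08, edgeR adjusted p = 0.00906). With the pairing 4 rose, Hspb1 (0.37), Gal (0.26), Adcyap1 (0.32) and Sox11 (0.35), and 3 fell, Fst, Cebpd (-0.59) and Csf1 (-0.64). None of the 34 passed in the paired fit of 12 libraries. Among the remaining lists Egr2 was the call of 21 immediate early genes, Parp14 (-0.53) that of 26 interferon genes and Phgdh (-0.34) that of 36 ATF4 targets. Lbr (-0.58) and Cyp51 (-0.42) fell of 26 genes of cholesterol synthesis. With the pairing Fos (-0.38), Ier3 (-0.30), Klf4 (-0.34) and Nr4a1 (-0.44) fell beside Egr2 among the immediate early genes, and Jund (0.28) rose. None of 26 unfolded-protein and p53 genes passed unpaired, and with the pairing 5 fell, Creld2 (-0.42), Eda2r (-0.55), Edem1 (-0.27), Hsp90b1 (-0.26) and Pdia4 (-0.35), and Cdkn1a (0.28) rose. Unpaired, none passed of 10 nuclear long RNAs or of 8 sex-linked genes. In the paired fit Rn7sk, a nuclear RNA that restrains transcription elongation and is named here after its values were seen, rose, at 5861, 12438 and 12308 CPM in WT and 10875, 15026 and 18057 CPM in het (0.52 ± 0.35, adjusted p = 0.00394 paired and 0.56 unpaired).

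Transcripts tested separately also differed mostly downward. Of 27661 transcripts tested 458 (1.66%) passed, 439 lower (1.59%) and 19 higher (0.0687%), and 1327 (4.8%) with the pairing, 1097 lower (3.97%) and 230 higher (0.831%). They belonged to 440 gene names, 364 of which were also called as genes, and no gene had transcripts called in both directions. Iqgap3-201 (-1.42), Itga1-201 (-1.01), Nid2-201 (-0.97) and Brca1-201 (-1.02) had the smallest p among the lower ones (edgeR adjusted p = 0.000607 each). They come from the scaffold gene above, an integrin, the basement membrane protein nidogen 2 and a DNA repair gene. Pink1-201 was at 23.2, 25.3 and 26.3 CPM in WT and 34.2, 37.3 and 43.8 CPM in het soma (0.62 ± 0.11, edgeR adjusted p = 0.00807). Slc41a2-202, a transcript of a magnesium transporter gene, rose from 2.10, 2.58 and 2.52 CPM to 4.09, 4.63 and 5.95 CPM (1.02 ± 0.20, edgeR adjusted p = 0.015) while its gene was at 0.22 (0.303).

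Gene names found in the soma table and not in the neurite table numbered 1043, of which 91 had enough counts to test. None of the 91 passed in edgeR's unpaired fit (7 at an unadjusted p under 0.05) and 2 were called higher with the pairing, Pof1b and a predicted gene. Pof1b, an actin-binding protein gene, had the smallest p at 0.154, 0.156 and 0.134 CPM in WT and 0.515, 0.585 and 0.553 CPM in het. It passed the filter on low counts only through its het libraries, and the WT libraries were close to the level of 3 counts, so its call is no independent result and no fold change is given. H2-M10.5 and Gckr followed on the higher side and Adgrb2, Prpsap2 and Syce2 on the lower side, all with group means under 1 CPM and none past the test. The same held for the 224 tested transcripts of the soma table alone, of which 0 passed and 8 had an unadjusted p under 0.05.

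The neurite libraries of the series were set beside the soma libraries to ask whether the genotype difference depended on the compartment. In the fit of all 12 libraries the test of that difference called no gene (0.0% of 16394), with 210 at an unadjusted p under 0.05 and 0 calls by limma voom (244 at an unadjusted p under 0.05) or with the pairing (291). In the same unpaired fit 516 genes passed in neurites (3.15%), 438 lower and 78 higher, and 0 of 16394 passed in soma. A fit that called no gene in soma cannot show by 0 interaction calls that the compartments are alike. Top2a had a log2 change of -1.35 ± 0.34 in soma and -1.52 ± 0.34 in neurites, Fabp7 of -0.99 ± 0.15 and -0.92 ± 0.15, and Cartpt of 0.55 ± 0.16 and 0.74 ± 0.16. The 371 genes lower in soma had a median of -0.83 in neurites. The labels do not say whether soma and neurite libraries of 1 number came from the same insert. The smallest interaction p among genes at 10 CPM or more belonged to Cbx2, Ppp1r12c and Srfbp1 on the side higher in soma (log2 differences 0.44, 0.49 and 0.35) and to Vsnl1, Mt3 and Bcdin3d on the other (-0.62, -0.43 and -0.53), none past the test. Ncl was at 0.20 ± 0.13 in soma and -0.07 ± 0.13 in neurites, a difference of 0.28 ± 0.18 (unadjusted p = 0.151).

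**Figure D5:**
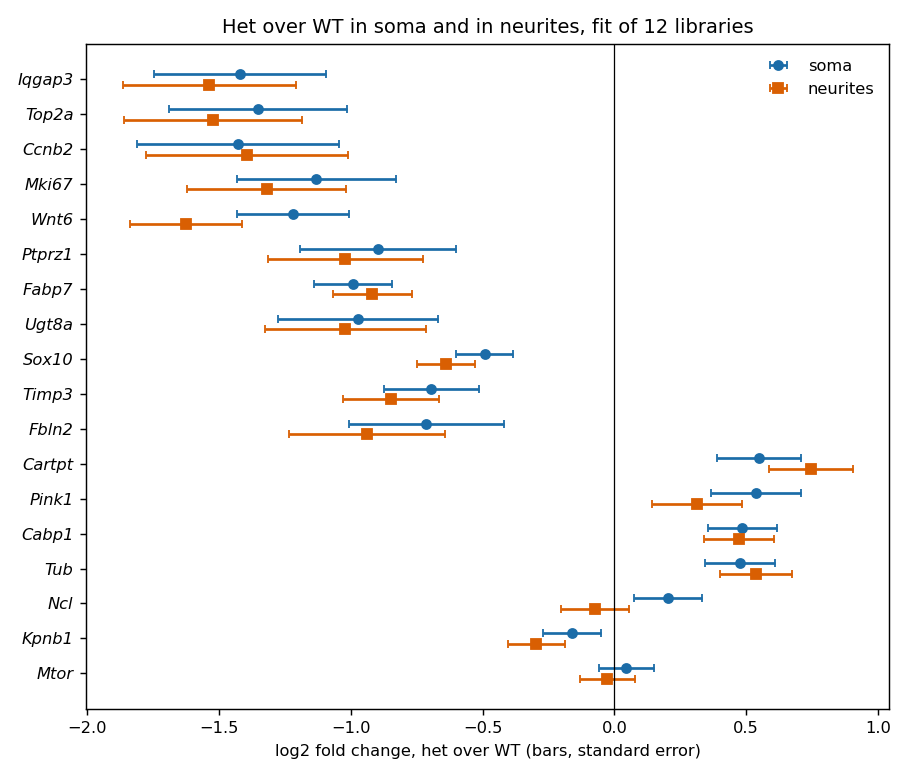
Log2 fold change of het over WT (x axis) for 18 genes in soma (circles) and neurites (squares) from the fit of 12 libraries, with bars of 1 standard error. For the proliferation, glial and matrix genes both marks lie left of 0, for Cartpt, Pink1, Cabp1 and Tub both lie right of 0, and Ncl, Kpnb1 and Mtor lie within 0.31 of 0.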

How the data were processed

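The authors deposited 1 table of raw read counts per transcript for soma and 1 for neurites, sequenced from total RNA depleted of ribosomal RNA with a stranded kit, per the labels' protocols. CASAVA 1.8.2, edgeR and the build mm10/GRCm38 are named per the submitters' processing notes; for the aligner and the counter, no name is given in the sources used here. Every soma transcript had at least 5 counts in at least 3 libraries, and the table lists no mitochondrial transcripts. The authors' fold changes and p-values were not used, nor were 24 columns of per-sample values.

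Counts were summed per gene name (17678 names), and 497 unnamed transcripts, 0.57% to 0.6% of counts, were kept by identifier. Genes passing filterByExpr were tested with edgeR 4.0.16 (R 4.3.3), using TMM factors, robust quasi-likelihood fits of the 6 soma libraries and Benjamini-Hochberg adjustment over all genes tested, at 0.05. Levels are CPM, and log2 fold changes are het over WT with their standard errors. Gene positions are from GENCODE M21 (GRCm38), in which 97.61% of transcripts were found. The biological coefficient of variation was 0.132, and 0.0943 with a replicate block. The number pairs WT and het libraries because every same-number correlation of deviations exceeded 0.1 (0.23, 0.28 and 0.16). In simulated counts on 15877 genes the unpaired test recovered 69 of 100 genes changed 1.5-fold and 92 of 100 changed 2-fold. It made 21 false of 182 calls, a larger share than the threshold of 0.05. That simulation held no replicate effect, unlike the data, so it does not measure the error rate of the unpaired calls. Gene members and lists were chosen with earlier results of these data known, and lists are described by counts and medians. The genes named are Ncl, Kpnb1 and Mtor, the 12 passing genes with the highest and the 12 with the lowest log2 fold change at 10 CPM or more, those with the smallest p in the other fits (6 per direction in the paired fit, 4 transcripts and 3 genes of the soma table alone and of the interaction), up to 6 members per list, and members passing in any fit. Cell markers are named as listed. A few genes that meet this rule are not reported here.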

Additional observations from a re-analysis of the deposited data

How the results depend on the processing

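The soma comparison called 383 genes and 458 transcripts as reported. For genes DESeq2 1.42.0 (Wald test) called 762, the replicate block 1302, the fit of 12 libraries 0 and, with the block, 521. Leaving out 1 library gave 79 to 564 genes and 147 to 668 transcripts. For transcripts DESeq2 gave 726 and the block 1327. Blocked fits without replicate 1, 2 or 3 of both groups, chosen after seeing the data as was the blocked fit of 12 libraries, gave 770, 891 and 1095 genes and 1089, 917 and 1483 transcripts. The cause of these differences was not tested. DESeq2 size factors in edgeR (355 genes), limma voom (310), a minimum of 10 CPM (326), no filter (393), no robust estimation (348) and leaving out X and Y genes (360) stayed within 1.5 times of the main count. No interaction alternative called a gene. For 246 named genes, 3917 of 4585 alternative values kept their side of the threshold, 362 came to pass and 306 no longer passed. No value changed sign where the gene passed in the main or the alternative fit. Where it passed in neither, the sign was not compared. Of 512 list medians 11, in 5 lists, moved by more than the spread between libraries. At this depth 3 counts are 0.0925 to 0.135 CPM, and levels near that rest on a few counts.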

Other observations

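Families of matrix proteins and their receptors, some members of which are also on the matrix list of the report, were grouped after their values were seen and carry no test as a group. Their counts stand beside 2.3% called lower among all genes tested. Both nidogen genes fell in het soma, Nid2 from 95.5 to 48.8 CPM (log2 -0.97 ± 0.11, edgeR adjusted p = 0.00467) and Nid1 from 668 to 398 CPM (-0.75). Of 9 laminin chains 4 fell, namely Lama4 (599 to 337 CPM, -0.83), Lamc1 (862 to 519 CPM, -0.73), Lama2 (-0.91) and Lamb2 (-0.75), at a family median of -0.57. Of 21 integrin genes, the receptors of such matrix, 5 fell. Itgb8 was the most abundant of these (1657 to 967 CPM, -0.78), beside Itga1 (-1.02), Itga6 (-0.69), Itga2 (-0.92) and Itgb5 (-0.70). Of 33 collagen genes 4 fell, Col28a1 (871 to 492 CPM, -0.82), Col8a1 (-0.82), Col14a1 (-1.22) and Col16a1 (-0.74), and 31 of the 33 values were below 0. Col4a1, a chain of basement membrane collagen, was at -0.76 and did not pass (edgeR adjusted p = 0.0506).

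Chromosome structure genes were grouped in the same way. Of 6 condensin subunit genes 5 fell (Ncapd2, Ncapg2, Ncaph, Ncapd3 and Ncapg, family median -0.90), and of 55 histone genes 7 (median -0.43), against 2.3% of all genes. Of 13 synaptotagmin genes, which encode vesicle calcium sensors and their relatives, Syt16 rose, against 0.0745% of all genes. All 13 values lay above 0 (0.14 to 0.60). None passed among 80 mitochondrial ribosome genes (median 0.03), 38 proteasome genes (0.03), 28 RNA polymerase genes (0.01) or 31 Hox genes (0.13).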
